A study of Sus scrofa with 16 samples.

Results

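The genes examined here were 10 genes of the major histocompatibility complex (MHC) and of antigen processing, SLA-DMA, SLA-DMB, SLA-DRA, SLA-DQA1, CD74, B2M, TAP1, TAP2, PSMB8 and PSMB9, in the hippocampus of preterm pigs. They were looked up by symbol among 22815 distinct entries of the deposited table, and 5 were found by their own symbol (SLA-DMA, SLA-DMB, TAP2, PSMB8 and PSMB9). SLA-DRA, ENSSSCG00000001453, was found only through the symbol of its human counterpart. SLA-DQA1, CD74, B2M and TAP1 were not matched to any entry and are not analysed here. PSMB8 was listed at 0 in each of the 16 pigs and PSMB9 stayed under the minimum mean of 0.5 FPKM, so 4 genes entered the comparison across all genes.

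The study asked whether necrotizing enterocolitis (NEC), an inflammatory gut disease of preterm newborns, changes gene expression in the developing hippocampus. Crossbred piglets were delivered preterm by cesarean section, fed human donor milk, and developed gut lesions spontaneously, with no transgene and no experimental infection. The 16 pigs comprised 6 with lesions of the small intestine, with or without lesions of the colon (Si-NEC, 3 female and 3 male), 5 with lesions of the colon only (Co-NEC, 2 female and 3 male) and 5 without NEC (No NEC, 2 female and 3 male). The groups were therefore formed by the lesions each pig developed and not by assignment, and the No NEC pigs were also preterm and fed donor milk. RNA came from the whole left hippocampus, so a lower value can come from fewer cells of a type or from less RNA per cell, and these cannot be told apart.

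MHC class II molecules display peptides from engulfed protein to helper T cells. SLA-DRA and SLA-DQB1 encode chains of the pig DR and DQ molecules, and SLA-DMA with SLA-DMB encodes the DM chaperone that exchanges the placeholder peptide for antigen in endosomes. MHC class I molecules display peptides from inside the cell, and those peptides are cut by the immunoproteasome, to which PSMB8 and PSMB9 contribute catalytic subunits, and are carried into the endoplasmic reticulum by the transporter made of TAP1 and TAP2. In the brain these genes are known mainly from microglia, border macrophages and vascular cells, are low in healthy tissue, and are induced by interferons, the class II genes through the coactivator CIITA.

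All values are FPKM (fragments mapped to a transcript, divided by its length and by the total mapped), estimated by the authors, which is a scale per length on which genes can be set side by side. The FPKM values summed to 544629 to 864931 per pig, and No NEC pig 230-15 and Si-NEC pig 223-15 had the highest sums of their groups. No read counts come with the table, so how many reads lie behind a value is unknown, which matters most for genes of few FPKM such as these. Of the markers of hippocampal tissue, SLC17A7 of excitatory neurons and GFAP of astrocytes were abundant, with means of 582 and 603 FPKM. PROX1 of granule neurons was much lower, at 7.90 FPKM.

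The antigen presentation genes were low in the hippocampus. Mean levels over the 16 pigs were 5.74 FPKM for SLA-DMB, 2.68 FPKM for SLA-DRA, 2.65 FPKM for TAP2, 2.64 FPKM for SLA-DMA and 0.367 FPKM for PSMB9. The gaps between SLA-DRA, TAP2 and SLA-DMA in this order were smaller than the spread between pigs. What set SLA-DRA and TAP2 apart from the DM genes was the spread: the highest pig was 36.1 times the lowest for SLA-DRA and 31.1 times for TAP2, against 5.20 times for SLA-DMA and 3.11 times for SLA-DMB. On the log2(FPKM + 0.5) scale the SD over the 16 pigs was 1.05 for SLA-DRA and 1.02 for TAP2, higher than in 97.4% and 97.2% of 6121 entries with means of 1 to 10 FPKM, whose median SD was 0.30. The SD was 0.60 for SLA-DMA and 0.39 for SLA-DMB.

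**Figure D1:**
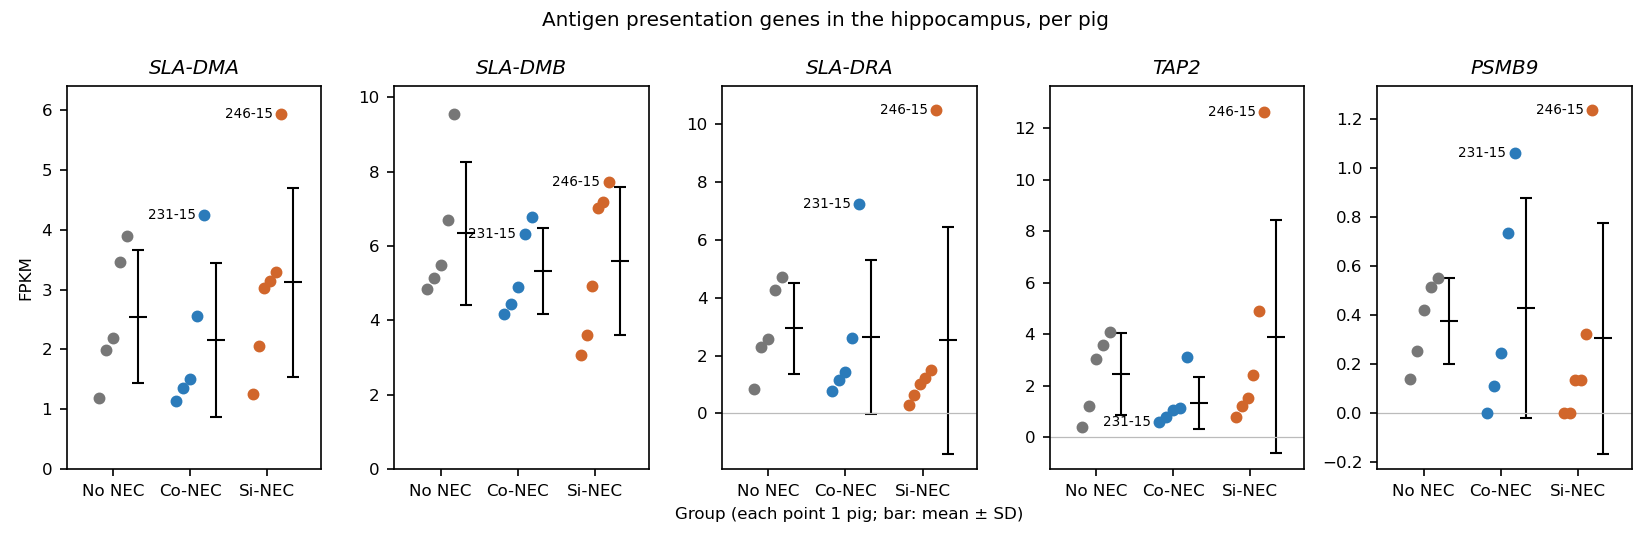
FPKM of the 5 antigen presentation genes above 0 in each pig (1 point per pig), by group on the x axis, with the mean and SD of each group as a bar beside the points. Si-NEC pig 246-15 was the highest of all 16 pigs for SLA-DMA (5.93), SLA-DRA (10.5), TAP2 (12.6) and PSMB9 (1.24), while the remaining points of the 3 groups overlapped.

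No antigen presentation gene passed a test between the groups. In limma, 0 of the 4 tested genes passed the adjusted p of 0.2 between Si-NEC and No NEC pigs, where 0.00736% of 13590 tested entries passed, and 0 of 4 passed between Co-NEC and No NEC pigs, where the share was also 0.00736%. Of the same 4 genes 0 passed between the NEC groups, against 0.0147% of all tested entries. At an unadjusted p under 0.05 the count was again 0 of 4 in each comparison, and 2.61%, 3.44% and 5.64% of all entries passed in the same order. The 2-sided exact permutation tests of these genes and PSMB9 gave p from 0.169 to 0.961. None of them separated 2 groups without overlap, which 0.155% of entries did between Si-NEC and No NEC, 0.464% between Co-NEC and No NEC, and 0.545% between the NEC groups. With so few entries called in any comparison, a count of 0 among 4 genes is the background level and says little about these genes.

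SLA-DRA, the alpha chain of the DR peptide receptor, was measured at 0.829, 2.31, 2.56, 4.27 and 4.71 FPKM in the No NEC pigs. In the Co-NEC pigs it was 0.761, 1.15, 1.41, 2.60 and 7.22 FPKM, and in the Si-NEC pigs it ran from 0.290 over a median of 1.12 to 10.5 FPKM. Within both NEC groups a single pig stood far above the rest, Co-NEC pig 231-15 and Si-NEC pig 246-15, and 5 of the 6 Si-NEC pigs were at or under 1.49 FPKM, lower than 4 of the 5 No NEC pigs. The mean level was 2.93 ± 1.57 FPKM (SD, n = 5) without NEC, 2.63 ± 2.66 (SD, n = 5) with Co-NEC and 2.52 ± 3.92 (SD, n = 6) with Si-NEC. The log2 fold change of Si-NEC over No NEC on the log2(FPKM + 0.5) scale was −0.68 (SE 0.60, limma adjusted p = 1; exact permutation p = 0.342), and −1.19 without pig 246-15. That of Co-NEC over No NEC was −0.32 (SE 0.51, limma adjusted p = 0.869), and −0.72 without pig 231-15. Between Si-NEC and Co-NEC pigs it was −0.37 (SE 0.63, limma adjusted p = 0.944), and 0.039 without pig 231-15.

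SLA-DMA, the alpha chain of the DM chaperone, was at 1.19, 1.99, 2.198, 3.46 and 3.90 FPKM in No NEC pigs. Co-NEC pigs had 1.14, 1.36, 1.50, 2.56 and 4.24 FPKM, and Si-NEC pigs ran from 1.26 over a median of 3.09 to 5.93 FPKM. The groups overlapped over nearly their whole range, and again pigs 231-15 and 246-15 were the highest of their groups. Means were 2.55 ± 1.11 (SD, n = 5), 2.16 ± 1.29 (SD, n = 5) and 3.12 ± 1.58 FPKM (SD, n = 6) in No NEC, Co-NEC and Si-NEC pigs. The log2 fold changes were 0.22 (SE 0.33, limma adjusted p = 1) for Si-NEC and −0.23 (SE 0.34, limma adjusted p = 0.859) for Co-NEC over No NEC. The largest was 0.45 (SE 0.34, limma adjusted p = 0.877) for Si-NEC over Co-NEC, where 1 Si-NEC pig was above every Co-NEC pig.

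SLA-DMB, the beta chain of DM, was the steadiest of the genes. It was at 4.85, 5.13, 5.50, 6.70 and 9.54 FPKM in No NEC pigs and at 4.18, 4.45, 4.89, 6.31 and 6.78 FPKM in Co-NEC pigs. Si-NEC pigs had 3.07 to 7.73 FPKM with a median of 5.98. The highest of all was No NEC pig 230-15, and 246-15 came next. Means were 6.35 ± 1.92 (SD, n = 5), 5.32 ± 1.16 (SD, n = 5) and 5.59 ± 1.99 FPKM (SD, n = 6) in No NEC, Co-NEC and Si-NEC pigs. The log2 fold changes over No NEC were −0.20 (SE 0.25, limma adjusted p = 1) for Si-NEC and −0.22 (SE 0.20, limma adjusted p = 0.813) for Co-NEC, and that of Si-NEC over Co-NEC was 0.016 (SE 0.23, limma adjusted p = 0.995).

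TAP2, a chain of the peptide transporter of the class I pathway, was at 0.406, 1.20, 3.03, 3.59 and 4.09 FPKM in No NEC pigs. In Co-NEC pigs it was 0.579, 0.797, 1.04, 1.13 and 3.09 FPKM, and in Si-NEC pigs 0.786 to 12.6 FPKM with a median of 1.96. All Co-NEC pigs but 255-15 lay at the low end. Near them were No NEC pigs 228-15, the lowest of all, and 540-14 at 1.20 FPKM. Si-NEC pigs 224-15 (0.786 FPKM) and 223-15 (1.22 FPKM) were there too. Pig 246-15 lay far above the next highest, Si-NEC pig 547-14 at 4.89 FPKM. The mean level was 2.46 ± 1.59 FPKM (SD, n = 5) without NEC, 1.33 ± 1.01 (SD, n = 5) with Co-NEC and 3.90 ± 4.51 (SD, n = 6) with Si-NEC. The log2 fold change of Si-NEC over Co-NEC, 0.91 (SE 0.55, limma adjusted p = 0.867; exact permutation p = 0.169), was the largest among these genes and was 0.49 without pig 246-15. That of Si-NEC over No NEC was 0.30 (SE 0.61, limma adjusted p = 1), and −0.11 without pig 246-15 or −0.065 without pig 228-15. That of Co-NEC over No NEC was −0.60 (SE 0.47, limma adjusted p = 0.812).

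PSMB9, an immunoproteasome subunit, was at 0.139, 0.254, 0.420, 0.514 and 0.554 FPKM in No NEC pigs. The Co-NEC pigs had 0, 0.110, 0.244, 0.735 and 1.06 FPKM, and the Si-NEC pigs 0 to 1.24 FPKM with a median of 0.136. A value of 0 was listed in 3 pigs, 2 of them Si-NEC. Pigs 246-15 and 231-15 were once more the highest, and the exact permutation p was 0.481 for Si-NEC and 0.921 for Co-NEC against No NEC and 0.602 between the NEC groups. PSMB8, the companion subunit, was listed at 0 in all 16 pigs, as were PSMB1 of the constitutive proteasome and ALDH1L1 of astrocytes, which these cells use, so a listed 0 was not read as absence of the transcript.

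**Figure D2:**
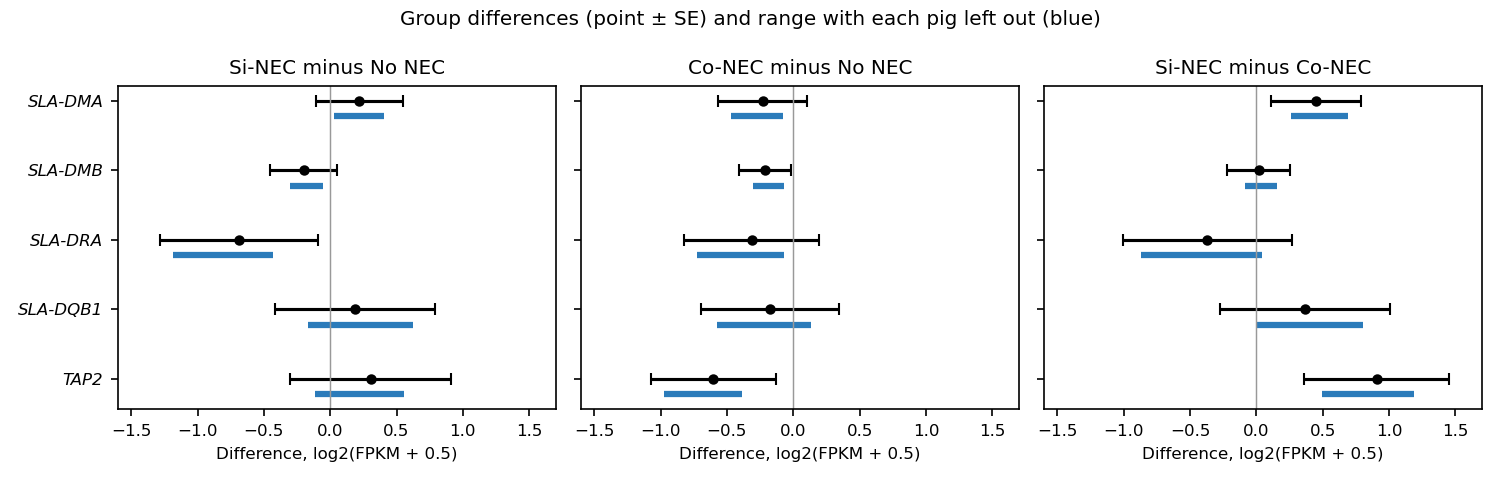
Differences between group means of log2(FPKM + 0.5) for the 4 tested genes and SLA-DQB1, a panel per comparison, as points with SE, with a blue bar for the range when each pig was left out in turn. The bar of SLA-DRA reached −1.19 in the Si-NEC and No NEC panel without pig 246-15, and the bars of TAP2 (Si-NEC against No NEC) and SLA-DRA (Si-NEC against Co-NEC) crossed 0.

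Single pigs differed more than the groups did. Si-NEC pig 246-15, singled out after its values were seen, ranked highest of the 16 pigs for SLA-DMA, SLA-DRA, TAP2 and PSMB9 and was next to the highest for SLA-DMB. Its summed FPKM over the 6 matched genes was 38.0, against 7.14 to 19.5 in the other 15 pigs. For comparison, it was the highest pig in 6.91% of all tested entries, while No NEC pig 230-15 was the highest in 26.3% and Si-NEC pig 223-15 in 17.5%. Co-NEC pig 231-15 came next to it for SLA-DMA, SLA-DRA and PSMB9 but was the next to lowest of all for TAP2. The class II genes and TAP2 were thus both high in pig 246-15 and went apart in pig 231-15. No NEC pig 253-15 showed the opposite mix, with the third highest TAP2 (4.09 FPKM) and an SLA-DRA of 0.829 FPKM that was among the 4 lowest.

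Genes of the interferon response were read beside these. In pig 246-15 each of the 16 type I interferon response genes above 0 was at its highest. MX1, an antiviral GTPase, was at 229 FPKM against 25.2 to 43.3 FPKM in the other 15 pigs. USP18, which restrains interferon receptor signalling, was at 52.8 FPKM against 0.785 to 6.15, and OAS2, an activator of RNA decay, was at 70.8 against 2.86 to 18.9 FPKM. Of the other 15 pigs, 253-15 was the highest for 14 of these 16 genes. The summed FPKM of the list was 657 in pig 246-15, 152 in pig 253-15 and 63.0 to 130 in the other 14 pigs, with pig 231-15 at 107.

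Pigs 246-15 and 231-15, the highest for SLA-DRA and SLA-DQB1, were also the highest for 3 regulators of the pathway, IRF1, CIITA and RFX5. IRF1, an interferon-induced factor that drives TAP and immunoproteasome genes, was at 25.3 FPKM in pig 246-15 and 12.2 FPKM in pig 231-15, against 2.30 to 5.51 FPKM in the other 14 pigs. CIITA, the class II coactivator, was at 1.13 FPKM in pig 231-15, 0.790 FPKM in pig 246-15 and 0.733 FPKM in No NEC pig 228-15, and under 0.5 FPKM in the other 13. RFX5, the factor bound at class II promoters, was also highest in these pigs, but its range was narrow, 4.89 to 7.19 FPKM. Pig 228-15 also had high class II genes, with SLA-DRA at 4.27 FPKM and SLA-DQB1 at 5.03 FPKM. Some other pigs with a high class II gene had low CIITA. No NEC pig 230-15 had the highest SLA-DMB (9.54 FPKM) and the lowest CIITA (0.0332 FPKM), but SLA-DQB1 at only 1.61 FPKM. No NEC pig 540-14 had SLA-DRA at 4.71 FPKM, above all but pigs 246-15 and 231-15, and CIITA at 0.162 FPKM. Whether interferon signalling had a part in the levels of the antigen presentation genes was not tested.

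**Figure D3:**
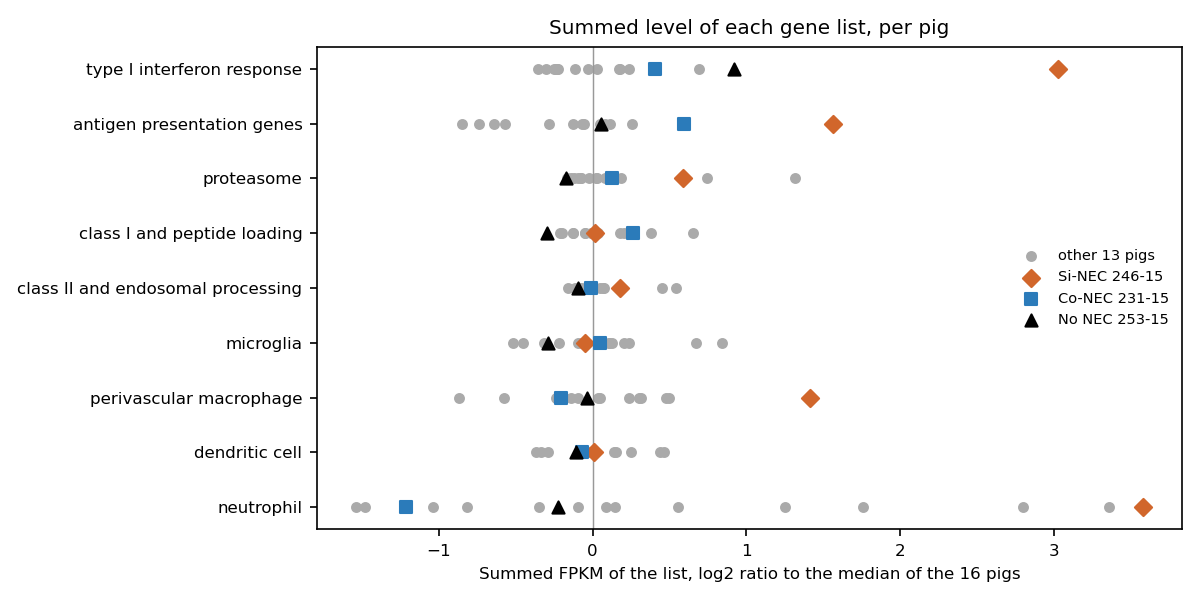
Summed FPKM of each gene list per pig on the x axis, as the log2 ratio to the median of the 16 pigs, with lists on the y axis, grey points for 13 pigs and coloured symbols for pigs 246-15, 231-15 and 253-15. Pig 246-15 lies farthest to the right for the type I interferon, antigen presentation, perivascular macrophage and neutrophil lists, and within the other pigs for microglia and dendritic cell genes. Each sum is carried by its most abundant genes.

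Among markers of cells that carry class II, the microglia and dendritic cell lists were not highest in pig 246-15 or pig 231-15, while the perivascular macrophage list was highest in pig 246-15. Over 12 microglia genes the summed FPKM was 138 to 269 in No NEC, 136 to 199 in Co-NEC and 118 to 303 in Si-NEC pigs. Pig 246-15, at 163, ranked the ninth and pig 231-15, at 175, the eighth of 16, and none of the 12 genes was highest in pig 246-15. CSF1R, the growth factor receptor of microglia, was at 8.84 FPKM in pig 246-15 and 6.85 to 15.6 FPKM in the others. The 6 dendritic cell genes summed to 2.16 to 3.84 FPKM, with pig 246-15 at 2.79. The 5 perivascular macrophage genes reached their highest sum, 29.2 FPKM, in pig 246-15, and 3 of the 5 were highest there, against 6.91% of all entries. CD14 made up 25.4 FPKM of the sum, SIGLEC1 was at 0.333 FPKM against at most 0.198 elsewhere, and F13A1 was at 2.54 FPKM against at most 1.699. MRC1 (0.532) and LYVE1 (0.403 FPKM) lay within the range of the other pigs. Pig 231-15 had the twelfth highest sum, 9.51 FPKM.

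Lymphocytes and blood leukocytes were also considered, since B cells and activated T cells can carry class II. The 4 B cell genes summed to 0.113 to 0.893 FPKM over all pigs, with the lowest sum in pig 246-15 and the defining MS4A1 at a mean of 0.00716 FPKM. The 8 T and NK cell genes summed to 1.49 to 8.38 FPKM, with CD3D at a mean of 0.0496 FPKM and pig 246-15 in the middle at 3.07. The neutrophil list was carried by S100A8, which was 25.0 FPKM in pig 246-15, 21.2 FPKM in pig 224-15 and 0.734 to 14.8 FPKM in the others, while CSF3R was listed at 0. Pig 224-15 had SLA-DRA at 1.22 and TAP2 at 0.786 FPKM. The endothelial sum of pig 246-15, 30.3 FPKM, ranked the fifth, and its genes went different ways. PECAM1 was at 13.4 FPKM against at most 12.7 elsewhere. SLCO1A2, at 2.13 FPKM, was below every other pig (2.50 to 5.75), and KDR, at 1.88 FPKM, was next to the lowest. FLT1 and TEK lay within the range of the other pigs. The choroid plexus sum of pig 246-15 was the highest at 27.1 FPKM, of which TTR made up 25.3 FPKM. KCNJ13, CLIC6 and OTX2 lay within the range of the other pigs. The part of these or other cells in the values of pig 246-15 was not tested.

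The rest of the class II pathway gave no call between the groups either. Of 15 further class II and endosomal genes 9 were matched and 7 tested. None passed the threshold, with 4 higher in Si-NEC than No NEC pigs (53.7% of all entries were), 1 higher in Co-NEC than No NEC (52.1% of all entries) and 6 higher in Si-NEC than Co-NEC (50% of all entries). Their median log2 fold changes were 0.084, −0.18 and 0.18 in that order, and those of all tested entries were 0.015, 0.011 and 4.82e-05. SLA-DQB1, the beta chain of DQ, ran like SLA-DRA, with 9.78 FPKM in pig 246-15 and 6.45 in pig 231-15 against a range of 0.155 to 5.03 FPKM elsewhere. Si-NEC over No NEC gave a log2 fold change of 0.19 (SE 0.60, limma adjusted p = 1), Co-NEC over No NEC −0.18 (SE 0.52, limma adjusted p = 0.934) and Si-NEC over Co-NEC 0.37 (SE 0.64, limma adjusted p = 0.945).

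CTSH, a lysosomal protease, had the largest difference of the list, 0.46 on the log2 scale for Si-NEC over No NEC (SE 0.25, limma adjusted p = 1) and 0.38 over Co-NEC (SE 0.27, limma adjusted p = 0.875). SLA-DOB, a chain of the DO modulator of DM, had the largest difference of the list between Co-NEC and No NEC, −0.29 (SE 0.21, limma adjusted p = 0.812). CTSB, a cathepsin of all lysosomes, was the most abundant at a mean of 149 FPKM. IFI30, the interferon-inducible thiol reductase of antigen unfolding, reached 14.2 FPKM in pig 246-15 against 3.27 to 7.26 FPKM elsewhere. SLA-DOA was listed at or under 0.235 FPKM in every pig.

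The class I pathway was read from its loading and trimming genes, since the classical SLA class I genes, B2M and TAP1 were not matched. Of 18 genes 8 were matched and 7 tested, and none passed. Their median log2 fold changes were 0.11 for Si-NEC and 0.081 for Co-NEC over No NEC, and −0.064 for Si-NEC over Co-NEC. CALR, a chaperone of the loading complex and the most abundant at 193 FPKM, had log2 fold changes of 0.21, 0.081 and 0.13. TAPBPL, a peptide editor, had the largest difference between Si-NEC and No NEC, −0.46 (SE 0.23, limma adjusted p = 1). ERAP1, which trims peptides in the endoplasmic reticulum, had the largest between Co-NEC and No NEC, 0.40 (SE 0.24, limma adjusted p = 0.812).

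In pig 246-15 ERAP1, ERAP2 and PSME2 were at their highest, as TAP2 was, while the chaperones were not. ERAP1 was at 7.69 FPKM in pig 246-15 against 1.23 to 3.79 FPKM in the others, and ERAP2 at 4.28 against 0.369 to 1.48 FPKM. Pig 231-15, with TAP2 at 0.579 FPKM, ranked next for ERAP2 at 1.48 and the third for ERAP1 at 3.69 FPKM. CALR in pig 246-15 was 163 FPKM, the eleventh of 16, and PDIA3, CANX and FCGRT were also within the range of the other pigs. Of 14 proteasome genes 5 were matched and 4 tested, none of which passed. PSME2, a subunit of the interferon-inducible proteasome activator, was at 24.1 FPKM in pig 246-15 against 5.29 to 13.4 elsewhere and 10.7 in pig 231-15, and PSME1, its partner, at 89.7 FPKM against 36.0 to 96.0. PSMB7, a constitutive subunit, was the most abundant at 118 FPKM and had log2 fold changes of −0.17, −0.29 and 0.13.

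Likewise the interferon and cell type lists gave no call between groups. None of 9 interferon gamma signalling genes and none of 16 type I interferon response genes passed the threshold in any comparison. The median log2 fold changes of the interferon gamma genes were 0.25, 0.21 and 0.10 for Si-NEC over No NEC, Co-NEC over No NEC and Si-NEC over Co-NEC, and those of the type I genes 0.014, −0.093 and 0.14. JAK1, a receptor kinase, had the largest difference of the former, 0.67 in Co-NEC over No NEC (SE 0.39, limma adjusted p = 0.812). MX1 had log2 fold changes of 0.28, −0.047 and 0.32, and among microglia genes the largest difference was that of TYROBP, an adaptor of microglial receptors, at 0.58 for Si-NEC over Co-NEC (SE 0.25, limma adjusted p = 0.867). The 12 microglia genes had medians of −0.029, −0.11 and −0.13.

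Of the other marker lists, 0 of 2 perivascular macrophage, 1 dendritic cell, 2 T and NK cell, 1 neutrophil, 5 endothelial, 6 meningeal and mural, 2 choroid plexus, 2 erythroid, 6 neuron, 3 astrocyte and 4 oligodendrocyte genes tested passed the threshold in any comparison. No B cell gene reached the minimum mean. The smallest unadjusted p among them was that of S100A8, which was higher in Si-NEC than Co-NEC pigs by 2.47 on the log2 scale (SE 0.53, limma adjusted p = 0.634) and higher than in No NEC pigs by 2.24 (SE 0.55, limma adjusted p = 1).

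The class II chains varied together from pig to pig. SLA-DRA and SLA-DQB1 had a Pearson r of 0.826 over the 16 pigs (permutation p = 8e-05, and 0.00112 when adjusted over 14 pairs) and a Spearman rho of 0.765 (permutation p = 0.00086, 0.012 when adjusted). Without pigs 246-15 and 539-14, the farthest from the median of SLA-DQB1, r was 0.689 (permutation p = 0.00644, adjusted p = 0.0902), and without pig 246-15 alone it was 0.761 (permutation p = 0.00099, adjusted p = 0.0139). SLA-DRA and SLA-DQB1 are close in sequence to other class II genes of the region, and how the authors' estimates shared reads among such copies is not known, so their values carry that uncertainty.

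The DM chains and the immunoproteasome followed more loosely. SLA-DMA and SLA-DMB, whose products pair, had r = 0.513 (permutation p = 0.043, 0.121 when adjusted) and rho = 0.571 (permutation p = 0.0228, 0.106 when adjusted), and r = 0.404 without pigs 246-15 and 225-15. SLA-DRA and PSMB9 had r = 0.722 (permutation p = 0.0019, 0.0133 when adjusted) and rho = 0.619 (permutation p = 0.0129, 0.0902 when adjusted). Without pigs 246-15 and 231-15 r was 0.425 (permutation p = 0.131). Without pig 246-15 alone it was 0.608 (permutation p = 0.0158, adjusted p = 0.111). SLA-DMA and SLA-DRA had r = 0.605 (permutation p = 0.0133, adjusted p = 0.0465), rho = 0.506 (permutation p = 0.0487, adjusted p = 0.165) and r = 0.463 without pigs 246-15 and 225-15. Both relations of SLA-DRA were thus weaker without the pigs left out and did not pass the adjustment there.

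SLA-DRA and TAP2 gave no call over all pigs, with r = −0.011 (permutation p = 0.966) and rho = −0.32 (permutation p = 0.23). Without pig 246-15 they tended to run in opposite directions, r = −0.57 (permutation p = 0.0282, adjusted p = 0.132), which did not pass the adjustment, and without 246-15 and 231-15 r was −0.49 (permutation p = 0.0792). CSF1R and SLA-DRA had r = 0.246 (permutation p = 0.359) and rho = 0.300 (permutation p = 0.26), and r = −0.036 without pigs 540-14 and 547-14. Most of these pairs were chosen after the values were seen.

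**Figure D4:**
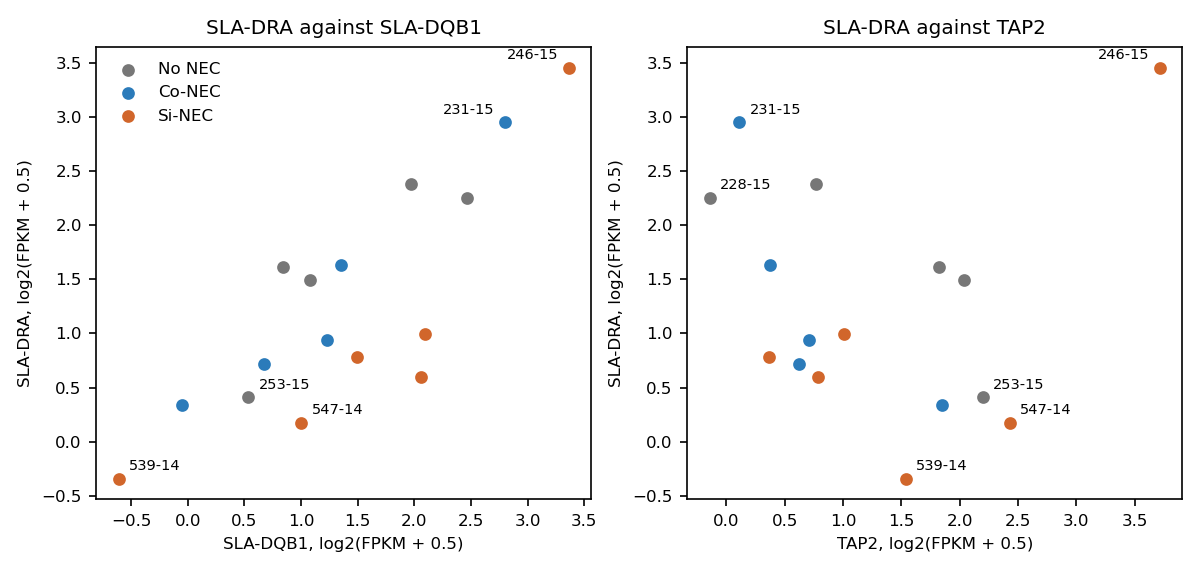
SLA-DRA on the y axis against SLA-DQB1 (left) and TAP2 (right) on the x axes, all as log2(FPKM + 0.5), 1 point per pig, coloured by group. Points rise together on the left (r = 0.826), and on the right pig 246-15 lies alone at the top while the other pigs fall from 231-15 and 228-15 towards 253-15 and 547-14.

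Genes that ranked the pigs most like SLA-DRA, among 9064 tested entries with a symbol, were GNPTAB (Spearman rho 0.818), B3GNT2 (0.818), PLA2G4A (0.809) and ETV3 (0.803), over 16 pigs. Those most like TAP2 were ST3GAL4 (0.876), ZNF48 (0.871), LMF2 (0.859) and IER5 (0.859). None of these is a gene of antigen presentation, the lists do not overlap, and each is among the highest of all entries compared, so its size is a selected one.

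On chromosome 7 of the RefSeq assembly Sscrofa11.1 the genes stand in the order SLA-DRA, SLA-DRB1, SLA-DQA1, SLA-DQB1, SLA-DOB, TAP2, PSMB8, TAP1, PSMB9, BRD2, SLA-DMB, SLA-DMA and SLA-DOA, leaving out unnamed loci. The neighbours SLA-DOB and TAP2 had unlike orders of pigs: SLA-DOB was at 0.820 FPKM in pig 246-15, the eighth of 16, where TAP2 was highest. SLA-DMB and SLA-DMA, next to each other, differed in their highest pig, 230-15 and 246-15. The deposited values were made on the earlier build Sscrofa10.2, so no coordinates are given.

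SLA-DMA in Co-NEC pigs lay on opposite sides of the No NEC values in females and males, but the test of this difference did not pass. The 2 Co-NEC females, at 2.56 and 4.24 FPKM, were above the 2 No NEC females, at 1.19 and 1.99 FPKM. The 3 Co-NEC males, at 1.14, 1.36 and 1.50 FPKM, were all below the 3 No NEC males, at 2.198, 3.46 and 3.90 FPKM. The log2 fold changes were 0.89 in females and −0.98 in males, a difference of 1.87 (SE 0.58) that did not pass the adjustment over all entries (limma adjusted p = 0.932). Of all tested entries, 1.91% separated the groups within both sexes in opposite directions. For Si-NEC over No NEC the values were 0.92 in females and −0.31 in males, and the limma adjusted p of the difference was 0.279. For the remaining 3 tested genes the interaction with sex gave limma adjusted p from 0.387 to 0.974. Every female had a pig number ending in 15, and every pig with a number ending in 14 was male. Sex and this ending are thus partly confounded.

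**Figure D5:**
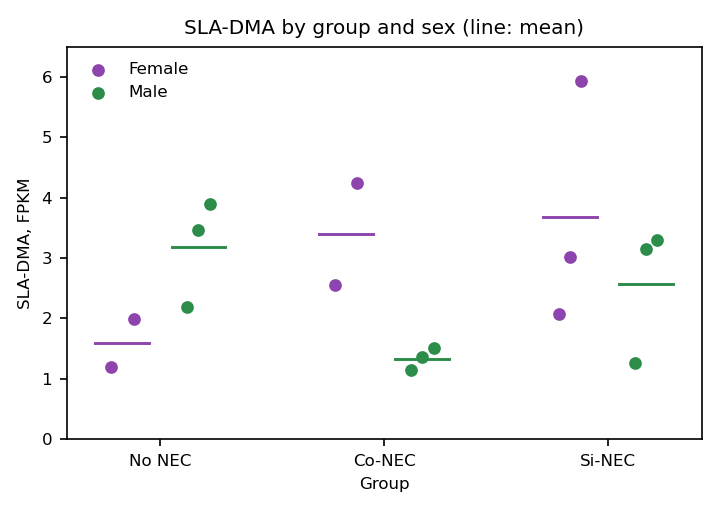
FPKM of SLA-DMA on the y axis by group and sex, 1 point per pig, with a line at the mean of each set. Co-NEC females (2.56 and 4.24) lie above No NEC females, and Co-NEC males (1.14 to 1.50) lie below No NEC males.

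Pig numbers ended in 14 or 15, a suffix whose meaning the labels do not give. Each group held 2 pigs with the suffix 14. All pigs with the suffix 14 were male and all females had the suffix 15. The suffix 14 values below therefore come from males only, and sex and suffix are partly confounded. For SLA-DRA the log2 difference of Si-NEC and No NEC pigs was −2.08 among the suffix 14 pigs (2 against 2) and 0.073 among the suffix 15 pigs (4 against 3), and −0.59 among the latter without pig 246-15 (3 against 3), a value added after the data were seen. For SLA-DMA the same difference was −0.37 and 0.54. For TAP2 it was 0.69 and 0.10, with 1.48 and 0.58 for Si-NEC over Co-NEC and −0.79 and −0.48 for Co-NEC over No NEC. Without pig 246-15 the TAP2 differences of the suffix 15 pigs reversed, to −0.65 for Si-NEC over No NEC and −0.17 for Si-NEC over Co-NEC. SLA-DMB was −0.30 and −0.18 for Si-NEC over No NEC, 0.11 and −0.43 for Co-NEC over No NEC and −0.41 and 0.25 for Si-NEC over Co-NEC.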

How the data were processed

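Hippocampal RNA of 16 pigs was measured, with groups and sexes as the labels give them. Reads were trimmed by the authors and aligned with TopHat2 2.1.1 to Sscrofa10.2 and estimated expression with Cufflinks 2.2.1, and the work here started from the deposited FPKM of each gene in each pig. Any scaling between pigs is not given in the sources used here. Low values were not whole multiples of a step (at most 45.6% of up to 201 low values per pig shared a ratio to 2 digits). The paper gives a total of clean reads over all pigs only. Depth per pig is thus unknown, and no counting error, interval or detection limit could be computed.

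Of 24594 entries, 1779 identical in every value to another were dropped. Names were joined by Ensembl identifier: 11001 of 21956 identifiers had a symbol. Where an identifier had several entries, that with the highest mean was used. All columns were used.

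Tests covered the 13590 entries whose mean reached 0.5 FPKM, as log2(FPKM + 0.5), which understates changes of low genes. Each pair of groups was fitted alone with limma 3.58.1 in R 4.3.3 (eBayes with a mean-variance trend, no covariate, Benjamini-Hochberg, threshold 0.2). Single genes were compared with 2-sided exact permutation tests, which allow no p under 0.00216 for 6 against 5 pigs and 0.00794 for 5 against 5, and correlations with 100000 permutations. Interactions with sex used limma with all groups. The fits were tested on simulated data. Python 3.11.15 with pandas 2.3.3, numpy 2.4.6, scipy 1.17.1 and matplotlib 3.10.9 made tables and plots.

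The genes examined and all lists were chosen with earlier results of these data known. The genes named are those examined; of each further list the gene with the highest mean and that with the largest change per comparison; genes among the 5 most like SLA-DRA and the 5 most like TAP2; and genes singled out by pig, which were chosen after their values were seen. Of 10 planned pairs for correlation 2 could be computed, and 12 were added afterwards. The results of some genes and pairs are not reported here. SLA-DRA and TAP2 took the place of CD74 and TAP1. A planned description of promoter motifs was not run, because no promoter sequence was at hand.

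Changes tried singly were a pseudocount of 0.1 or 1, no filter, a minimum mean of 1 FPKM, rescaling by the median of ratios, all groups in 1 fit, sex or suffix as covariate, no trend, an adjusted p of 0.05, leaving out each pig in turn, and leaving out pigs 223-15 and 230-15 together.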

Additional observations from a re-analysis of the deposited data

Results flagged for a closer look

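In 15 combinations of an antigen presentation gene and a group, the gap between the most extreme pig and its neighbour was examined. It was compared with the range of the group, on FPKM not put on a log scale. Of these, 5 exceeded Dixon's critical value, which flags about 1 in 20 groups of normally distributed values. How often other entries were flagged by this rule was not computed, so the 5 flags are not read as an excess. The 15 combinations share the same 16 pigs, so the flags are not independent. SLA-DRA in Co-NEC pig 231-15 was 7.22 FPKM, with the next Co-NEC pig at 2.60. SLA-DRA in Si-NEC pig 246-15 was 10.5 FPKM, with the next Si-NEC pig at 1.49. TAP2 in pig 246-15 was 12.6 FPKM, with the next at 4.89, and PSMB9 in this pig was 1.24 FPKM, with the next at 0.323. TAP2 in Co-NEC pig 255-15 was 3.09 FPKM, with the next Co-NEC pig at 1.13.

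The log2 fold change of SLA-DMA for Co-NEC over No NEC differed by 1.87 between the females and the males measured. Sex was partly confounded with the suffix of the pig number. Every pig of each sex lay on one side of the No NEC pigs of that sex, in opposite directions, and the test of the difference gave a limma adjusted p of 0.932.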

How the results depend on the processing

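No antigen presentation gene was called under any of the 65 alternatives that count calls. Of 248 recomputed log2 fold changes of the 4 tested genes, 238 kept their direction and 10 reversed, none past the threshold (lowest limma adjusted p 0.580). TAP2 in Si-NEC against No NEC ran from −0.11 to 0.56 with single pigs left out, reversing to −0.11 without pig 246-15 and −0.065 without pig 228-15. SLA-DMB in Si-NEC against Co-NEC, near 0 throughout, was −0.060 without pigs 223-15 and 230-15 and ran from −0.085 to 0.16 with single pigs left out. SLA-DRA in Si-NEC against Co-NEC ran from −0.87 to 0.039. An alternative added after the data were seen kept only suffix 15 pigs without pig 246-15. There SLA-DRA was −0.59 for Si-NEC over No NEC and −0.61 for Si-NEC over Co-NEC. Both kept the direction of the main fit, and reversed only from the 0.073 and 0.051 of all suffix 15 pigs. TAP2 reversed from the main fit, to −0.65 for Si-NEC over No NEC and −0.17 for Si-NEC over Co-NEC. The number of genes called in all was 1 for Si-NEC against No NEC, 2 with suffix as covariate and 1 to 3 with single pigs left out. It was 1 for Co-NEC against No NEC, 4 without a filter and 1 to 2 with single pigs left out. For Si-NEC against Co-NEC it was 2, and 1 with a pseudocount of 0.1, no filter, 1 fit for all groups, sex or suffix as covariate, an adjusted p of 0.05 or without pigs 223-15 and 230-15, and 1 to 12 with single pigs left out.

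Among correlations past an adjusted p of 0.05, r without the 2 farthest pigs was 0.463 for SLA-DMA and SLA-DRA, 0.425 for SLA-DRA and PSMB9 and 0.689 for SLA-DQB1 and SLA-DRA, none of which stayed past it. Without pig 246-15 alone the first 2 of these were 0.449 and 0.608. Pairs not past it changed sign without the 2 farthest pigs, to −0.011 for SLA-DMA and TAP2, −0.19 for TAP2 and PSMB9 and −0.036 for CSF1R and SLA-DRA, and without pig 246-15 TAP2 had −0.14 with PSMB9. No paired analysis was possible because the labels give no replicate numbers that tie pigs of different groups. The paper's piglets came from several sows, and litter was not taken into account here. Some pigs may be littermates, which the tests treat as independent. Unknown depth per pig, groups of 5 or 6 pigs, and 4 unmatched genes limit what these data can show of antigen presentation.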
